A study of Mus musculus with 20 samples.

Results

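The transcripts described here are those of 10 mouse genes that encode subunits of ionotropic glutamate receptors, namely the AMPA receptor subunits Gria1, Gria2, Gria3 and Gria4, the kainate receptor subunits Grik1, Grik2, Grik3, Grik4 and Grik5, and the NMDA receptor subunit Grin1. They were taken by Ensembl identifier from a table of 37620 genes, and all 10 were found, had a value in each of 20 libraries and were tested. Each library held RNA of Trpv1 neurons sorted from dorsal root ganglia (DRG) of adult mice of 6 to 8 weeks, all homozygous for the Trpv1tm2Bbm reporter allele, which places β-galactosidase under control of the Trpv1 locus. The brightest β-galactosidase-positive cells were collected with a fluorescent substrate. There were 4 groups of 5 libraries: male lumbar (L4-5), male sacral (L6-S1), female lumbar and female sacral, with no wild-type or unsorted group among them. The lumbar and sacral libraries of a donor were paired by the animal numbers in their labels, which gave 5 male donors (M1 to M5) and 5 female donors (F1 to F5). Each label carries 2 animal numbers, and whether cells of 2 mice were pooled is not given in the sources used here.

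Ionotropic glutamate receptors are cation channels that open when they bind glutamate. Each is an assembly of several subunits, drawn from within the AMPA, kainate or NMDA family, and the subunit mixture sets calcium permeability, kinetics and agonist affinity. In sensory neurons of the DRG these receptors lie on the cell body and on peripheral and central terminals, and kainate receptors containing GluK1, the Grik1 product, are a long-known feature of small DRG neurons. GluN1, the Grin1 product, is the obligatory subunit of NMDA receptors.

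Between 44044413 and 66679106 reads per library lay on genes, as worked back from the deposited values, and the 10 genes held 121 to 9268 reads each in any library. Levels are given as log2 RPKM (log2 of reads per kilobase of exon, scaled to library size). Markers of nociceptors were abundant. The log2 of their summed RPKM was 10.43 to 11.05 in lumbar and 10.47 to 11.06 in sacral libraries. Most of it came from Calca and Tac1 (mean log2 RPKM of 9.98 and 9.21 in lumbar libraries). On the same scale, markers of large myelinated neurons came to 4.80 to 6.08 in lumbar and 4.72 to 5.72 in sacral libraries, mostly from Nefh (3433 to 11801 reads). Calb2 had a value in 6 libraries, with at most 12 reads. Markers of satellite glia were also abundant, at 9.44 to 10.82 in lumbar and 8.39 to 9.56 in sacral libraries. All 10 donors had more of them in the lumbar library. Below, lumbar or sacral DRG stands for the cells sorted from those ganglia, not for whole ganglia. The glial difference moved with the level comparison throughout, and its values are given beside the results below. In such sorted pools, fewer cells of a type and less RNA per cell cannot be told apart.

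In AMPA and kainate receptor subunits a codon of the pore loop, the Q/R site, encodes glutamine in the genome. In Gria2, Grik1 and Grik2 it can be recoded to arginine by RNA editing, which lowers the calcium permeability of the channel. The sequences around it are shown because this codon bears on calcium permeability and because they show how alike the genes are there. Each is 36 bases of coding exon, 5′ to 3′ on the strand of the gene, in build NCBIM37 (mm9), with the codon in capitals. For Grin1 the capitals mark the asparagine codon found at the matching place in the NMDA receptor.

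Gria1, chr11:57056566-57056601, plus strand, exon 11: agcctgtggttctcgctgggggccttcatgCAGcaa
Gria2, chr3:80510830-80510865, minus strand, exon 11: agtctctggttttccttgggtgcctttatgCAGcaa
Gria3, chrX:38963412-38963447, plus strand, exon 11: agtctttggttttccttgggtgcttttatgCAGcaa
Gria4, chr9:4464134-4464169, minus strand, exon 12: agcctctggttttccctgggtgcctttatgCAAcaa
Grik1, chr16:87940784-87940819, minus strand, exon 11: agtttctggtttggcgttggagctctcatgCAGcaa
Grik2, chr10:48964132-48964167, minus strand, exon 12: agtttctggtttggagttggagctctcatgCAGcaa
Grik3, chr4:125368421-125368456, plus strand, exon 12: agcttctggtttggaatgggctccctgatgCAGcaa
Grik4, chr9:42355703-42355738, minus strand, exon 14: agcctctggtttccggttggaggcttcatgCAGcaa
Grik5, chr7:25807513-25807548, minus strand, exon 15: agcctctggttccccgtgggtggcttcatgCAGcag
Grin1, chr2:25152903-25152938, minus strand, exon 14: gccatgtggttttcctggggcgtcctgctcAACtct

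Of the 9 AMPA and kainate genes, 8 have CAG at the Q/R site and Gria4 has CAA. Grik1 and Grik2 were the most alike, with 35 of 36 bases the same, followed by Gria2 and Gria3 with 34. The least alike within a family were Grik2 with Grik5 and Grik3 with Grik5, at 24 bases. The deposited values are totals per gene, so the edited share of any transcript cannot be read from them.

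Levels were compared between genes per length, as log2 RPKM. Grik1 was highest over the 20 libraries, with a mean of 3.83 ± 0.72 (SD, n = 20), and it exceeded Gria4 in 8 of 10 donors by 0.78 on average (exact two-sided sign-flip test over donors, adjusted p = 0.025 over 9 neighbouring pairs). Gria4 (3.05 ± 0.20) and Grin1 (2.98 ± 0.55) came next. Over both levels they did not differ beyond the spread between donors (adjusted p = 0.58, same exact test), although they did in lumbar libraries. Grik5 followed at 2.43 ± 0.32 and lay below Grin1 in all 10 donors (exact test, adjusted p = 0.0088). Grik4 (1.92 ± 0.42) lay below Grik5 in all 10 donors, and Grik4 and Grik3 (1.91 ± 0.60) were level (exact test, adjusted p = 0.93). Gria3 stood at 1.69 ± 0.53, Gria2 at 1.51 ± 0.43 and Gria1 at 1.40 ± 0.81, and neither Gria3 and Gria2 nor Gria2 and Gria1 could be separated (adjusted p of 0.46 and 0.58, exact tests). Grik2 was lowest over both levels, at 0.73 ± 0.45, below Gria1 in 9 donors (exact test, adjusted p = 0.018). The order depended on the spinal level. Gria4 exceeded Grin1 by 0.42 in all 10 donors in lumbar libraries alone (exact test, adjusted p = 0.0088). The Gria4 minus Grin1 difference was -0.29 in sacral libraries alone (adjusted p = 0.046, exact test). Adjusted over neighbours in the sacral order instead, this sacral difference did not pass (adjusted p = 0.060, exact test). Gria1 had the lowest mean in lumbar libraries, where it could not be separated from Grik2 (5 of 10 donors each way, adjusted p = 0.79, exact test). In lumbar libraries alone Grik3 was above Grik4 by 0.67 (exact test, adjusted p = 0.028), whereas in sacral libraries alone it was below Grik4 by 0.70 (adjusted p = 0.0059, exact test). Gria3 was above Gria2 by 0.86 in lumbar libraries (exact test, adjusted p = 0.012), whereas the Gria3 minus Gria2 difference was -0.50 in sacral libraries (exact test, adjusted p = 0.020).

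**Figure D1:**
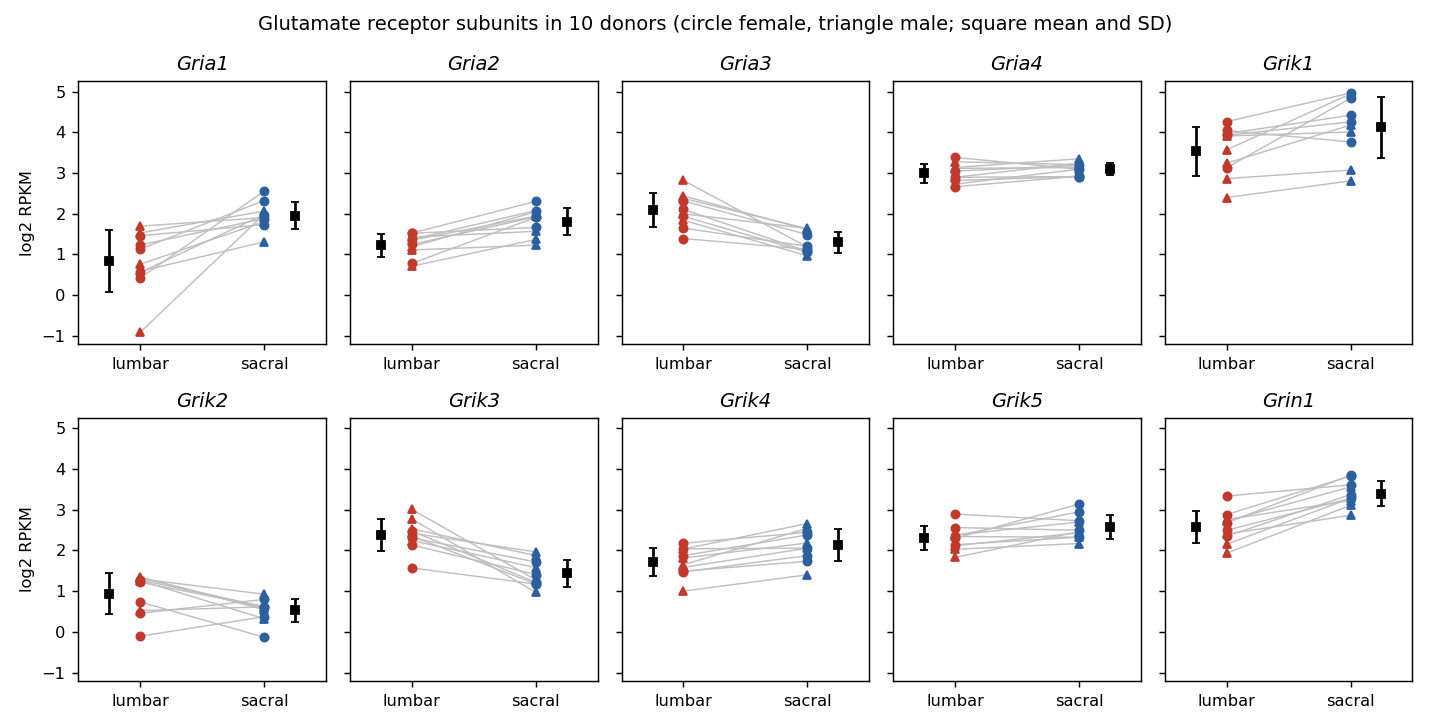
Log2 RPKM of the 10 subunit genes in lumbar (red) and sacral (blue) libraries, with grey lines joining the 2 libraries of a donor, circles for female and triangles for male donors, and black squares with bars for the mean and SD of 10 libraries. Every line falls from lumbar to sacral for Gria3 and Grik3, and every line rises for Gria1, Gria2, Grik4 and Grin1.

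The comparison of lumbar with sacral DRG asks which transcripts distinguish the ganglia that hold pelvic visceral neurons. With limma on the deposited values and the donor as a random block, 9 of the 10 genes were differentially expressed at an adjusted p of at most 0.05, against 45.7% of all 16304 genes tested. Of these, 6 were upregulated in sacral DRG (background 30.4%), namely Gria1, Gria2, Grik1, Grik4, Grik5 and Grin1. The other 3, Gria3, Grik2 and Grik3, were upregulated in lumbar DRG (background 15.3%). The background was higher among more abundant genes. With a stricter filter, at a mean log2 RPKM above 1 in at least 1 group, 9 of the 10 were again called. Of all 11469 genes then tested, 55.8% were called, 40.7% upregulated in sacral and 15.1% in lumbar DRG. All 10 donors had more in sacral DRG for 4 genes and more in lumbar DRG for 2, against 14.6% and 6.55% of the 15318 genes tested with a value in every library. For none of the 10 genes were the ranges of the levels fully apart, which was the case for 1.71% of those genes. A log2 fold change below 0 stands for upregulation in sacral DRG, since sacral was subtracted from lumbar. Over all genes the median of this difference was -0.11 as deposited and 0.00 once TMM factors were applied. With TMM factors 6 of the 10 subunit genes were called, against 43.4% of all genes, and Grik1, Grik4 and Grik5 were lost.

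Among AMPA receptor subunits, Gria1 changed most. Gria1 (ENSMUSG00000020524, chr11:56824889-57143746), which encodes GluA1, a subunit that forms calcium-permeable channels when GluA2 is absent, had a log2 RPKM of -0.91 to 1.69 (median 0.95) in lumbar libraries. In sacral libraries it was 1.31 to 2.55 (median 1.94). The lowest lumbar library was that of M5, at 121 reads, and 7 lumbar libraries lay below every sacral library. The log2 fold change was -1.11 (SE 0.23, adjusted p = 0.00057 from limma), or 2.16-fold more in sacral DRG, with donors from -2.90 in M5 to -0.21 in M1. Without M5 it was -0.88 and still passed the test.

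Gria2 (ENSMUSG00000033981, chr3:80488858-80606713) encodes GluA2, whose edited form makes AMPA receptors nearly impermeable to calcium. In lumbar libraries the log2 RPKM was 0.71 to 1.53 (median 1.30) and in sacral libraries 1.23 to 2.30 (median 1.92), and 4 lumbar libraries lay below all sacral ones. It changed by -0.58 (SE 0.12, adjusted p = 0.00066 from limma), or 1.49-fold, with all 10 donors in that direction.

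Gria3 (ENSMUSG00000001986, chrX:38754031-39031778), which encodes GluA3, changed the opposite way. The log2 RPKM was 1.39 to 2.82 (median 2.05) in lumbar and 0.97 to 1.64 (median 1.19) in sacral libraries, so that 9 of 10 lumbar libraries exceeded all sacral ones. The log2 fold change was 0.79 (SE 0.13, adjusted p = 6.5e-05 from limma), or 1.73-fold more in lumbar DRG. Relative to the median of all genes it was 0.90.

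Gria4 (ENSMUSG00000025892, chr9:4417899-4796234) encodes GluA4, a subunit with fast kinetics, and was the most abundant AMPA receptor transcript at both levels. It had a log2 RPKM of 2.66 to 3.38 (median 2.97) in lumbar and 2.91 to 3.35 (median 3.11) in sacral libraries, which overlapped widely. The difference was -0.11 (95% interval -0.28 to 0.06, adjusted p = 0.28 from limma). This equals the shift of the median gene, and the sign was positive under quantile normalization (0.06) and voom (0.01).

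Among kainate receptor subunits the largest change was that of Grik3 (ENSMUSG00000001985, chr4:125167944-125391417), which encodes GluK3, a subunit of low glutamate affinity. Its log2 RPKM was 1.57 to 3.01 (median 2.39) in lumbar and 0.97 to 1.96 (median 1.34) in sacral libraries. All but 1 lumbar library exceeded every sacral library, the exception being F1 at 1.57. The log2 fold change was 0.95 (SE 0.14, adjusted p = 1.9e-05 from limma), or 1.93-fold more in lumbar DRG, with donors from 0.40 in F1 to 1.81 in M5.

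Grik2 (ENSMUSG00000056073, chr10:48819266-49508572) encodes GluK2, which forms functional channels on its own, and was also upregulated in lumbar DRG. Values ran in log2 RPKM from -0.10 to 1.35 (median 1.24) in lumbar and from -0.13 to 0.92 (median 0.60) in sacral libraries. The lumbar values fell into 6 libraries at 1.22 to 1.35, above all sacral ones, and 4 at -0.10 to 0.73, within the sacral range. It changed by 0.41 (SE 0.16, adjusted p = 0.044 from limma), and 7 of 10 donors had that direction. The call was lost without F2, F3, F4, M2, M3, M4 or M5 (adjusted p of 0.060 to 0.109, limma), and with quantile normalization (adjusted p = 0.057, limma).

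Grik1 (ENSMUSG00000022935, chr16:87896441-88289947), encoding GluK1, had a log2 RPKM of 2.40 to 4.26 (median 3.74) in lumbar and 2.81 to 4.96 (median 4.22) in sacral libraries. The spread between donors was wide (SD 0.60 in lumbar and 0.74 in sacral libraries, n = 10), and M2 was lowest at both levels. The log2 fold change was -0.59 (SE 0.22, adjusted p = 0.029 from limma), or 1.51-fold more in sacral DRG, in 9 of 10 donors. The call was lost without F3, F4, F5, M4 or M5 (adjusted p of 0.051 to 0.102), and with every other scaling between libraries (adjusted p of 0.057 to 0.111, limma).

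Grik4 and Grik5 encode GluK4 and GluK5, the high-affinity subunits, which need GluK1, GluK2 or GluK3 to form a channel. The log2 RPKM of Grik4 (ENSMUSG00000032017, chr9:42326218-42752576) was 1.001 to 2.18 (median 1.73) in lumbar and 1.40 to 2.66 (median 2.12) in sacral libraries. It changed by -0.42 (SE 0.14, adjusted p = 0.018 from limma) with all 10 donors in that direction, from -0.89 in M5 to -0.01 in F1. Grik5 (ENSMUSG00000003378, chr7:25794872-25857388) had a log2 RPKM of 1.83 to 2.89 (median 2.32) in lumbar and 2.17 to 3.13 (median 2.48) in sacral libraries. Its change was -0.28 (SE 0.11, adjusted p = 0.041 from limma), in 7 of 10 donors, and -0.17 relative to the median gene. Under the other scalings neither Grik4 (adjusted p of 0.052 to 0.061) nor Grik5 (0.171 to 0.250, limma) passed the test. Grik5 was also lost without F1, F5, M3, M4 or M5 (adjusted p of 0.066 to 0.131, limma).

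Grin1 (ENSMUSG00000026959, chr2:25146701-25174707) had a log2 RPKM of 1.93 to 3.34 (median 2.59) in lumbar and 2.86 to 3.85 (median 3.33) in sacral libraries. Of the lumbar libraries, 8 lay below all sacral ones. The log2 fold change was -0.83 (SE 0.12, adjusted p = 2.3e-05 from limma), or 1.77-fold more in sacral DRG, with donors from -1.17 in M2 to -0.27 in F2. The gene overlaps exons of E130003G02Rik on the opposite strand, and the use of strand in counting is not given in the sources used here. Gria2, Gria3 and Gria4 each share exon sequence with an annotated miRNA gene on the same strand, and how reads in such shared parts were assigned is not given there either.

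**Figure D2:**
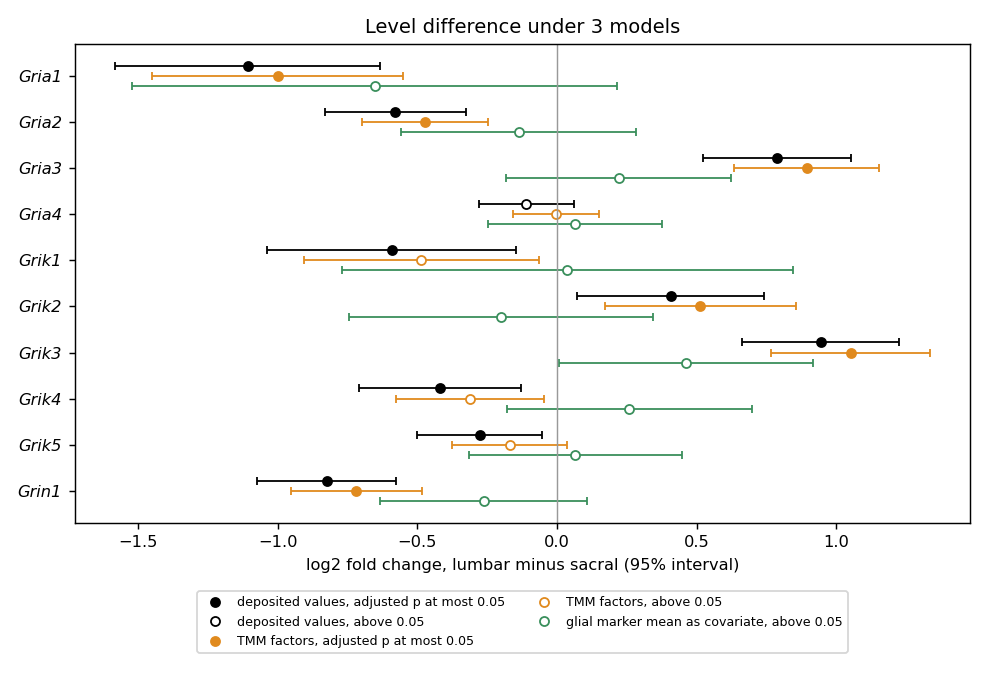
Log2 fold change of lumbar minus sacral with its 95% interval from limma for the 10 genes, from the deposited values (black), after TMM factors (orange) and with the glial marker mean as a covariate (green), where filled points have an adjusted p of at most 0.05. Gria1, Gria2, Gria3, Grik2, Grik3 and Grin1 are filled both in black and in orange, and no green point is filled.

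Composition within a receptor family was described as the share of each subunit in the summed linear RPKM of its family, which does not move with the scaling between libraries. In lumbar libraries Gria4 held 47.9% ± 4.25 (SD, n = 10) of the AMPA receptor total, Gria3 26.2% ± 6.72, Gria2 14.3% ± 3.33 and Gria1 11.6% ± 4.11. In sacral libraries the share of Gria4 was 46.4% ± 4.80, that of Gria1 21.1% ± 3.69, that of Gria2 19.1% ± 3.77 and that of Gria3 13.4% ± 2.63. Gria3 thus ranked next to Gria4 in lumbar libraries and last in sacral libraries by mean share, with a lower share in sacral DRG in all 10 donors. The summed AMPA receptor RPKM was 16.8 ± 2.36 in lumbar and 18.7 ± 1.58 in sacral libraries, and 7 donors had more in sacral DRG.

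Of the kainate receptor total, Grik1 held 42.8% ± 10.4 in lumbar and 54.1% ± 12.2 in sacral libraries, with 9 of 10 donors higher in sacral DRG. The share of Grik3 was 19.8% ± 7.39 in lumbar and 8.72% ± 3.18 in sacral libraries, higher in lumbar DRG in all 10 donors. Grik2 held 7.52% ± 3.05 and 4.66% ± 1.86, Grik4 12.01% ± 2.47 and 13.9% ± 4.65, and Grik5 17.8% ± 2.63 and 18.6% ± 5.16 in lumbar and sacral libraries, respectively. The summed kainate receptor RPKM was 28.1 ± 4.61 in lumbar and 34.2 ± 9.09 in sacral libraries.

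**Figure D3:**
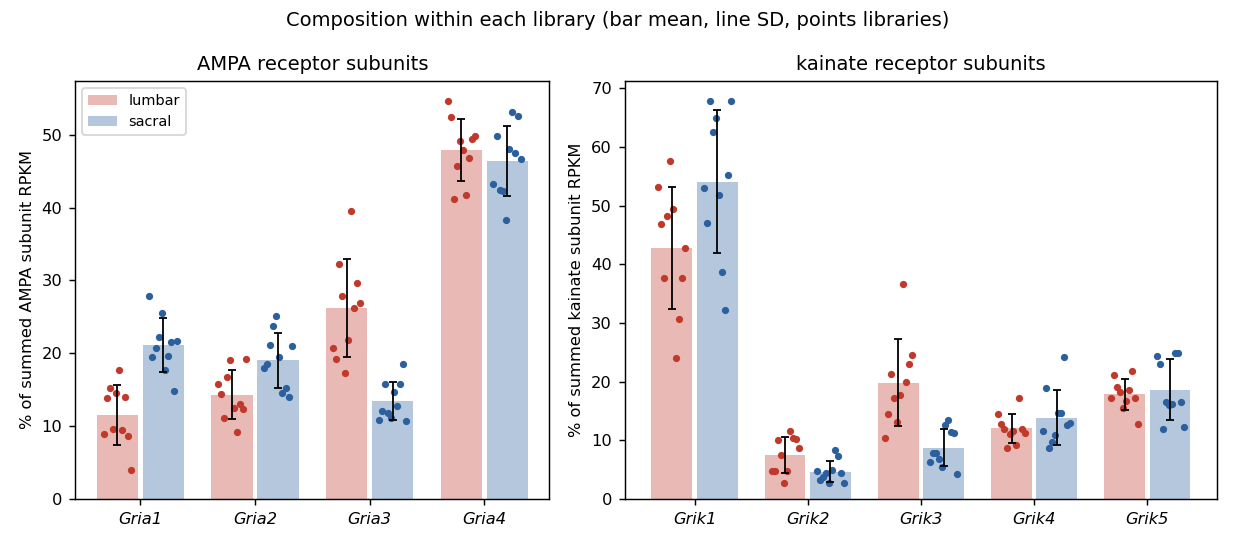
Share of each subunit in the summed RPKM of its family within a library, in percent, for lumbar (red) and sacral (blue) libraries, with points for the 10 libraries, bars for the mean and lines for the SD. The Gria3 bar falls from 26.2% in lumbar to 13.4% in sacral libraries and the Grik3 bar from 19.8% to 8.72%, while the Gria4 bars stand at 47.9% and 46.4%.

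Ratios of 2 subunits within a library were tested over the 10 donors with exact two-sided sign-flip tests, whose smallest possible p is 0.0020, adjusted over 7 pairs. The log2 ratio of Gria3 to Gria2 was 0.86 ± 0.65 (SD, n = 10) in lumbar and -0.50 ± 0.50 in sacral libraries, a change of 1.37 (adjusted p = 0.0046, exact test) with all 10 donors higher in lumbar DRG. The ratio of Gria4 to Gria2 changed by 0.47, from 1.77 ± 0.28 in lumbar to 1.30 ± 0.43 in sacral libraries, also in all 10 donors (adjusted p = 0.0046, exact test). For Gria1 over Gria2 the change was -0.53 with an SD of 0.86 between donors and did not pass (adjusted p = 0.107, exact test). With single donors left out it ran from -0.66 without M1 (exact test, adjusted p = 0.033) to -0.33 without M5 (adjusted p = 0.21, exact test). It passed without M1 only.

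Grik5, the common partner of kainate receptors, was the denominator for the other kainate subunits. The log2 ratio of Grik3 to Grik5 was 0.09 ± 0.57 (SD, n = 10) in lumbar and -1.14 ± 0.52 in sacral libraries, a change of 1.22 in 10 of 10 donors (adjusted p = 0.0046, exact test). That of Grik2 to Grik5 changed by 0.68 in 9 of 10 donors (adjusted p = 0.010, exact test). Those of Grik1 to Grik5 (-0.32, adjusted p = 0.107) and Grik4 to Grik5 (-0.14, adjusted p = 0.25, exact tests) did not pass. Without F1, whose Grik4 to Grik5 ratio moved by 0.82 the opposite way, these changes were -0.41 and -0.25 and passed (adjusted p of 0.032 and 0.014, exact tests). With any other donor left out, neither passed. Without F3 the Grik1 to Grik5 change was -0.18 (adjusted p = 0.21, exact test).

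The glial difference between the levels was compared with these changes. The mean log2 RPKM of 12 satellite glial and Schwann cell markers was 5.59 ± 0.37 (SD, n = 10) in lumbar and 4.66 ± 0.44 in sacral libraries. It was higher in the lumbar library in all 10 donors. All 7 satellite glial markers and 4 of 5 myelinating Schwann cell markers were upregulated in lumbar libraries (background 15.3%). Among them were Sox10 (1.40), Fabp7 (1.38), Kcnj10 (1.26) and Mbp (0.87). Endothelial markers (4 of 4) and the macrophage marker Csf1r (1 of 2 tested) were also upregulated in lumbar libraries. The macrophage marker C1qa had a value in 13 libraries. With the glial marker mean as a covariate in limma, none of the 10 subunit genes passed the test (lowest adjusted p = 0.43, Grik3, and 1 gene at an unadjusted p under 0.05), against 0.859% of all 16304 genes. Since the covariate was itself higher in lumbar libraries of every donor, standard errors grew, for Gria1 from 0.23 to 0.42. The log2 fold changes were then -0.65 for Gria1, 0.46 for Grik3, -0.26 for Grin1, 0.22 for Gria3 and -0.14 for Gria2. Those of Grik1 (0.04), Grik2 (-0.20), Grik4 (0.26) and Grik5 (0.07) had the opposite sign to the fit without it.

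Across donors, the level change of a gene was set against the level change of the glial marker mean, which ran from 0.55 in M1 to 1.45 in M5. Over the 10 genes, Pearson's r passed the adjustment for Gria1 (r = -0.81) and Grik3 (r = 0.80), both at an adjusted p of 0.039 (permutation test, n = 10 donors). Spearman's rho was -0.76 and 0.72, at an adjusted p of 0.089 each (permutation test). Grin1 stood beside them by rank, with a rho of -0.71 at the same adjusted p of 0.089 (permutation test), and no gene passed by rank. Without M1 and M5, the donors farthest from the median, r was -0.46 for Gria1 and 0.62 for Grik3, so the first rests largely on them. For the other 8 genes r lay between -0.59 (Grin1) and 0.42 (Gria3), with adjusted p of 0.20 and above (permutation test). Within the 4 groups, deviations of the 20 libraries from their group means gave a further description, without a test since libraries share donors and scaling. There the correlation with the glial marker mean was 0.71 for Gria3, 0.61 for Grik2 and 0.56 for Grik3, the genes upregulated in lumbar DRG. It was negative for the other 7 genes, at -0.71 for Grik4, -0.70 for Grin1, -0.61 for Gria2, -0.52 for Grik5, -0.41 for Grik1, -0.36 for Gria4 and -0.28 for Gria1.

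**Figure D4:**
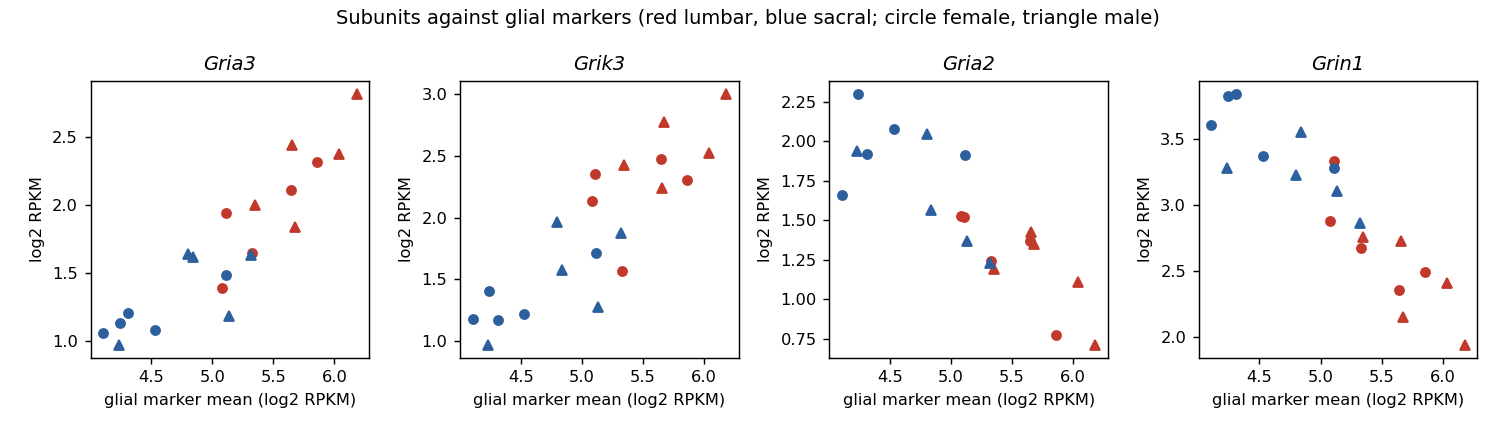
Log2 RPKM of Gria3, Grik3, Gria2 and Grin1 against the mean log2 RPKM of 12 glial markers in the 20 libraries, red for lumbar and blue for sacral, circles for female and triangles for male donors. The lumbar libraries lie at higher glial values (mean 5.59) than the sacral ones (mean 4.66), with higher Gria3 and Grik3 and lower Gria2 and Grin1 on average, and the 2 levels overlap along the glial axis.

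Neuronal markers were mixed. Of 6 nociceptor markers, 4 were upregulated in sacral DRG (background 30.4%), including Trpv1 (-0.96), Scn10a (-0.94) and Gfra3 (-0.72), and none in lumbar DRG. Calca (0.16) and Tac1 (-0.10) did not pass. Of 4 markers of nonpeptidergic nociceptors, 3 were upregulated in sacral DRG (background 30.4%), namely Ret (-0.96), P2rx3 (-0.55) and Gfra2 (-0.35). Mrgprd (-0.51) did not pass. Of 4 tested markers of large myelinated neurons, only Pvalb passed, upregulated in lumbar DRG (2.11) from at most 113 reads (background 15.3%). Nefh (0.03), Calb1 (0.13) and Ntrk3 (-0.27, higher in sacral DRG in 7 of 10 donors) did not pass. With the glial covariate none of these markers passed. The sign turned positive for Gfra3 (0.06), P2rx3 (0.14), Mrgprd (0.19) and Ntrk3 (0.20), and negative for Calb1 (-0.41).

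The sexes were compared within each level. No subunit gene differed between females and males in lumbar libraries (lowest adjusted p = 0.44, Gria3) or in sacral libraries (lowest adjusted p = 0.62, Grin1, limma), where 0.0427% and 0.0368% of all tested genes did. None of the 10 had an unadjusted p under 0.05 in limma at either level, whereas voom, which gave 0 at the adjusted threshold, gave 4 genes at each level. Grik1 had the widest difference, with female minus male of 0.67 (95% interval -0.03 to 1.37) in lumbar and 0.65 (-0.05 to 1.34) in sacral libraries. Its log2 RPKM was 3.13 to 4.26 in female lumbar libraries and 2.40 to 3.91 in male ones, which overlapped. In sacral libraries it was 3.76 to 4.96 in females and 2.81 to 4.94 in males. The test of whether the level difference itself differed between the sexes called none of the 10 genes and 0% of all genes (limma, 674 of 16304 genes at an unadjusted p under 0.05, and 757 by voom, which also called 0). By sex, the log2 fold change of Grik2 was 0.55 in males alone and 0.26 in females alone, and that of Grik3 was 1.06 and 0.83.

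The remaining ionotropic glutamate receptor genes were mostly low. Of 8, 5 were tested and 2 were differentially expressed, against 45.7% of all genes tested. Grin3a, which encodes the glycine-binding GluN3A subunit of NMDA receptors, rose from 0.98 ± 0.46 (SD, n = 10) in lumbar to 2.17 ± 0.38 in sacral libraries (-1.19, SE 0.16, adjusted p = 9.8e-06 from limma), in all 10 donors. Grid1, encoding the delta receptor GluD1, was upregulated in lumbar DRG (0.93, SE 0.26, adjusted p = 0.0055 from limma) in 8 of 10 donors. With the glial covariate neither passed, at -0.59 for Grin3a (adjusted p = 0.38) and 0.32 for Grid1 (adjusted p = 0.85, limma). Grin2a, Grin2b and Grin2c, which encode glutamate-binding GluN2 subunits, had at most 13, 13 and 55 reads in a library and were below the filter on low values, and Grin2d, at -0.70 in lumbar and -0.41 in sacral libraries, did not pass (adjusted p = 0.24, limma).

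Of 12 AMPA receptor auxiliary subunits, 11 were tested. At an adjusted p of at most 0.05 (limma), 5 were upregulated in sacral DRG (background 30.4%) and 2 in lumbar DRG (background 15.3%). The median fold change of the 11 was -0.51, against -0.11 over all genes. The largest changes towards sacral DRG were those of the cornichon genes Cnih3 (-1.57, SE 0.33, adjusted p = 0.00063 from limma) and Cnih2 (-0.83), and of Cacng3 (-0.91), which encodes a transmembrane AMPA receptor regulatory protein. Towards lumbar DRG they were those of Cacng4 (0.59) and Shisa7 (0.38). With the glial covariate 1 of the 11 passed, against 0.859% of all genes. This was Cacng5 (-0.74, adjusted p = 0.019, limma), named after its values were seen. Its log2 RPKM was 1.55 to 2.10 in lumbar and 2.37 to 2.99 in sacral libraries. These ranges did not overlap, which was the case for 1.71% of the 15318 genes tested with a value in every library. Both kainate receptor auxiliary subunits were upregulated in sacral DRG (background 30.4%), Neto2 (-0.84, adjusted p = 6.0e-06 from limma) and Neto1 (-0.57, adjusted p = 0.020). With the glial covariate Neto2 was at -0.37 (adjusted p = 0.38) and Neto1 at 0.16 (adjusted p = 0.91, limma).

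Of 12 genes for scaffolds and trafficking of glutamate receptors, 11 were tested. Of these, 8 passed with more in sacral DRG (background 30.4%) and 1 with more in lumbar DRG (background 15.3%). The median fold change of the 11 was -0.39. Those that changed most were Nptx2 (-1.30) and Nptxr (-0.92), of the neuronal pentraxin pathway that clusters AMPA receptors, and Nsf (-0.69), an ATPase of membrane fusion that binds GluA2. Dlg3, encoding the scaffold SAP102, was upregulated in lumbar DRG (0.68). Of the RNA editing enzymes 2 of 3 were tested. Adar was upregulated in sacral DRG (-0.34, adjusted p = 0.0057 from limma), while Adarb1, whose product edits the Q/R site of Gria2, changed by -0.45 and did not pass (adjusted p = 0.069). Of 8 metabotropic glutamate receptors 3 were tested, and Grm3 (-0.83) and Grm7 (-0.72) were upregulated in sacral DRG (background 30.4%). With the glial covariate none of the genes in this paragraph passed.

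**Figure D5:**
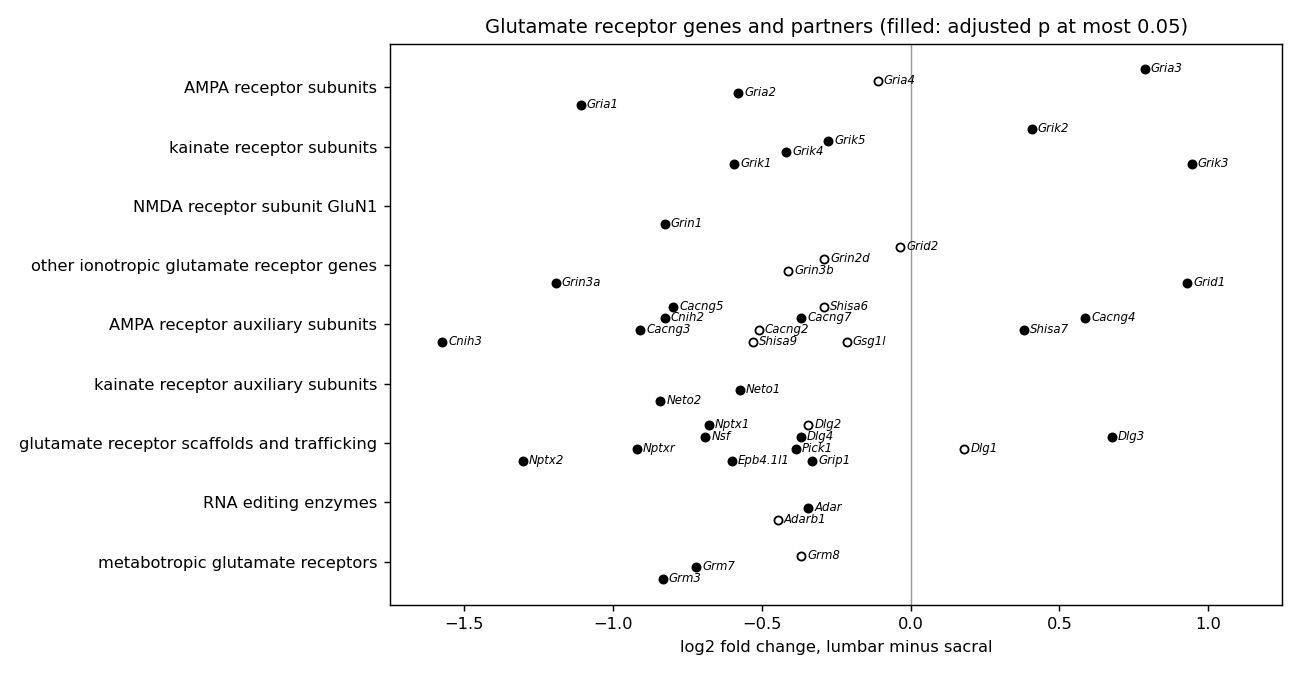
Log2 fold change of lumbar minus sacral for each tested gene of the 9 glutamate receptor lists, with filled points at an adjusted p of at most 0.05 and open points above it. Among the auxiliary subunits and scaffolds most filled points lie left of 0, towards sacral DRG, with Cacng4, Shisa7 and Dlg3 to the right.

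Genes most like each member were sought by Pearson's r of deviations from the 4 group means over the 20 libraries, which share donors and depth, among 15318 genes, and are given without a test. Grik1 was most like Mrgprd (r = 0.96), the marker of a nonpeptidergic nociceptor class, followed by Rspo2 (0.96). Gria3 was most like Dmd (0.92), Gpc6 (0.92) and Reep3 (0.92). Grin1 was most like Ptprn (0.94), which encodes a protein of dense-core vesicles, and Msn (0.92), and Grik4 was most like Fam189b (0.95), Gabbr2 (0.93), a subunit of the GABA-B receptor, and Zbtb4 (0.92). For Gria1 they were Pdxk (0.91), Gtf3c4 (0.90) and Pax8 (0.88), for Gria2 Camk1g (0.86) and Hoxb5 (0.85), and for Gria4 Nosip (0.87), Cog1 (0.83) and Hoxd1 (0.83). For Grik2 they were Crtc2 (0.86), Nfia (0.85) and Cd81 (0.85), for Grik3 Tns3 (0.82), Lgr4 (0.82) and S100a16 (0.81), and for Grik5 Zbtb7a (0.89), Clip2 (0.88) and Gbf1 (0.88). Among the members themselves Gria3 deviated with Grik2 (r = 0.68) and with Grik3 (r = 0.62), and Grin1 with Grik5 (r = 0.76), Grik4 (r = 0.73) and Gria4 (r = 0.72).

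RefSeq promoters (build GRCm38.p6) were matched for 7 of the 10 genes, and the 250 bases before the start are shown for Grik3 and Grin1, which changed most in opposite directions among these 7. Capitals mark GC boxes (GGGCGG on either strand), which 32.7% of 32851 promoters of this length hold. The Grik3 promoter has 6 of them, Grik5 has 2 and Grik4 has 1, and the letters are not in the windows of Gria2, Gria4, Grik2 and Grin1.

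Grik3, chr4:125490446-125490695, plus strand: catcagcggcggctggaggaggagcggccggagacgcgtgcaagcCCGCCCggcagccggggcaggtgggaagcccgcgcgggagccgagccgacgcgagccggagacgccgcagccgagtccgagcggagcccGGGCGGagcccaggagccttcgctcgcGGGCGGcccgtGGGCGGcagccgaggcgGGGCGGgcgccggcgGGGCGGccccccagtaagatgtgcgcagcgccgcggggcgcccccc
Grin1, chr2:25319188-25319437, minus strand: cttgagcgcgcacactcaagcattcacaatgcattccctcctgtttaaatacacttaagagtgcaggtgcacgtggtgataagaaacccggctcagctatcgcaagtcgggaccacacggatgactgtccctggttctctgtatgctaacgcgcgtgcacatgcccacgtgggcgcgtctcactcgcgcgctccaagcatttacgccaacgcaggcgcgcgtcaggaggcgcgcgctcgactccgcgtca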

How the data were processed

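RNA was measured in 20 libraries of sorted Trpv1 neurons, 5 in each group of sex and spinal level, placed by their labels. The authors used Subread for alignment to mm9 (versions 1.18 and 1.20.6 stand in the submitters' processing notes), counted unique reads per Ensembl gene by featureCounts, and scaled them by TMM (edgeR 3.12.1) and voom (limma 3.26.9). Deposited values are in log2 RPKM, and all libraries share a median of 0.93, by a step the methods do not describe. Of 432951 deposited values, 99.9% were whole reads within 0.01 when worked back with exon lengths, which gave the reads and depth used here. Depth describes counting error only.

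The 10 genes and all gene lists were chosen with earlier results of these data known. Genes with a mean log2 RPKM above -1 in at least 1 group (at least 3 values) were kept, 16422 in all, of which 16304 were tested between levels. The test was that of limma (3.58.1, with statmod 1.5.0, under R 4.3.3) on 4 group means. Donor was a random block (correlation 0.18), the prior variance followed mean expression, and p-values were adjusted over all genes by Benjamini-Hochberg. Libraries of a donor, paired by animal numbers, had deviations from the group means that correlated at 0.18 on average (8 of 10 pairs above 0.1), against -0.04 between different donors of a sex. All p-values refer to the spread between these donors. In limma that spread was taken from variances moderated across genes and from the 1 donor correlation shared by all genes. Subunit ratios and neighbours in level were tested by exact sign-flip permutation over 10 donors, and correlations with glial markers by permutation. From lists other than the 10 genes, up to 3 called genes with the largest change in each direction were named, and for each of the 10 genes the 3 most alike, of which some are not reported here. The alternatives were other filters, pseudocounts of 1 and 0.1, quantile normalization, TMM factors written out by hand, voom on worked-back reads, no trend, array weights, other donor models, an adjusted p of 0.01, a glial covariate, each donor left out and each sex alone. Tested on simulated data of 15318 genes, the level comparison recovered 84.5% of the 200 that were shifted by 1 on the log2 scale, with 3.43% false calls. The simulation held no shared glial difference and shifted far fewer genes than were called here. Of the 10 genes only Gria1 changed by as much, so these rates may not hold for the calls. Coding sequences were read from annotated transcript sequences of build NCBIM37, with positions from the annotation of the same build. Python 3.11.15, pandas 2.3.3, numpy 2.4.6 and matplotlib 3.10.9 were used.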

Additional observations from a re-analysis of the deposited data

Results flagged for a closer look

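Grik2 in the male lumbar group was flagged because the library of donor M1, at a log2 RPKM of 0.52, stood apart from the other 4 libraries, which lay between 1.26 and 1.35. Its gap to the nearest library was 0.89 of the range of the group, against Dixon's critical value of 0.71 for 5 libraries. Chance alone would flag about 5% of groups, and 40 groups were checked. Without M1 the level difference of Grik2 was 0.49 and passed the test.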

How the results depend on the processing

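With 9 of the 10 subunit genes called between the levels, 5 were called after quantile normalization (40.0% of all genes), at an adjusted p of at most 0.01 (31.5%), in male donors alone (29.2%) and in female donors alone (23.5%), and 0 with the glial marker mean as a covariate (0.859%), where the cause was not tested. Leaving out each donor in turn gave 6 to 9. Gria1, Gria3, Grik3 and Grin1 were called in 14 of 15 alternatives and without any donor, Gria2 in 13 of 15 and without any donor. Reversed signs were those of Gria4 after quantile normalization (0.0578), with voom (0.0134) and with the glial covariate (0.0649), and, with that covariate only, those of Grik1 (0.0364), Grik2 (-0.20), Grik4 (0.26) and Grik5 (0.0663). No subunit gene was called between the sexes, or for sex by level, in any alternative. With no replicate block 6 subunit genes were called (Grik1, Grik2 and Grik5 were lost), and 7 with the replicate block as a fixed effect (Grik2 and Grik5 were lost). Of all genes 6577 and 7151 were called in these fits, against 7458. The share of called genes upregulated in lumbar DRG rose with another scaling, from 2501 of 7458 to 3416 of 7074 with TMM factors, 3057 of 6514 with quantile normalization and 3564 of 7041 with voom. The number of subunit ratios that passed was 4 with no replicate block and with a pseudocount of 1, and 4 to 6 when a donor was left out, and 5 neighbours in level differed whichever donor was left out. The 10 genes had 121 to 9268 reads per library, and counting error was not separated from the spread between donors.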
